A study of Mus musculus with 4 samples.

Results

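Secreted Wnt ligands, their Frizzled receptors, the R-spondins that amplify Wnt signals and the secreted Sfrp and Dkk inhibitors were followed through 4 RNA-seq libraries of mouse gut tissue. The family was taken by gene symbol: every gene named Wnt, Fzd, Rspo (1 to 4), Sfrp (1 to 5) or Dkk (1 to 4) with its number. This rule found 41 of the 55203 genes in the tables: 19 Wnt, 10 Fzd, 4 Rspo, 4 Sfrp and 4 Dkk genes. These 41 genes had 90 annotated transcripts, and 21 of the genes had a single one. A gene's level is the sum of the FPKM values of its transcripts, where FPKM is the fragment number divided by transcript length and by all mapped fragments, so levels can be compared between genes.

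The libraries came from adult male wild-type C57BL/6NTac mice kept under specific-pathogen-free conditions and aged 8 to 12 weeks. The labels mark 2 libraries as treated with ribonucleoside vanadyl complex at 4 mM (RVC, which inhibits RNases) and 2 as fresh frozen. The stated purpose of the RNA-seq was an in-house check of gene expression for an imaging-based atlas of the gut. A single protocol text, which describes a rinse in RVC, is attached to all 4 libraries, and nothing states whether the 2 libraries of a group came from separate animals. The p-values therefore measure only the spread between these libraries, which may be technical. Each library carries its own batch number, 1 to 4, and the groups cannot be told apart from the batches.

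The tissue label reads ileum, whereas the protocol and the design text name the distal colon. All 10 genes of a colon list reached a mean of 1 FPKM, led by Car4, a carbonic anhydrase of colonic epithelium. Of 10 ileum genes 3 did, and 5 were listed at 0 in all 4 libraries: Fgf15, Defa17, Defa22, Defa26 and Apoa4. The values thus go against the ileum label, and the tissue is called gut tissue here. Depth was read in relative terms, from the ratio of coverage to FPKM: fresh frozen 2 was the deepest library and the others had 72.6% to 81.8% of its depth. No fragment counts are given, and the absolute depth behind a value of 0 was not estimated.

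Wnt proteins are lipid-modified ligands that bind Frizzled receptors together with the co-receptors Lrp5 and Lrp6, which stabilises β-catenin and switches on TCF/LEF target genes. R-spondins bind Lgr receptors and block the ligases Rnf43 and Znrf3, which otherwise clear Frizzled receptors from the cell surface. Sfrp proteins bind Wnts, and most Dkk proteins block the co-receptors. In the intestine this pathway maintains the stem cells of the crypt base, and mesenchymal cells beneath the epithelium supply much of the ligand and R-spondin.

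Frizzled receptors made up most of the family's RNA, and a single receptor, Fzd5, stood above all other genes of the family. Summed over the class, Frizzled genes reached 30.7 ± 1.52 FPKM (SD, n = 4), which was 61.7% of the family's 49.7 ± 3.74 FPKM. The 19 Wnt genes together gave 6.63 ± 1.11 FPKM, the 4 Sfrp genes 5.20 ± 0.899, the 4 Dkk genes 4.15 ± 0.616 and the 4 R-spondins 3.06 ± 0.608 FPKM. The lowest Frizzled sum of any library, 29.2 FPKM, lay far above the highest Wnt sum, 8.08 FPKM. Because the tissue was measured in bulk, fewer cells of a type and less RNA per cell cannot be told apart in any of these values.

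**Figure D1:**
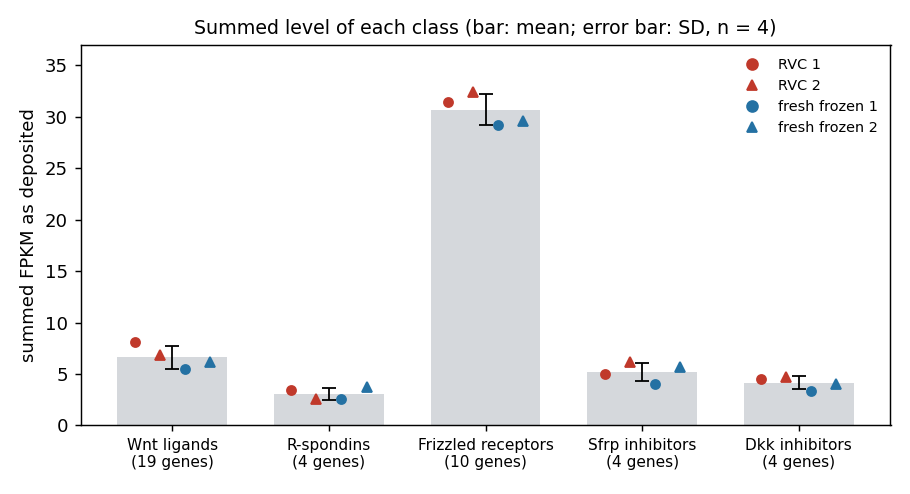
Summed FPKM of each class of genes (vertical axis, linear, from 0); grey bars are means over the 4 libraries, error bars are SD and points are single libraries. Frizzled receptors lie between 29.2 and 32.4 FPKM in every library, and the other classes stay below 9.

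Across the family, 14 of 41 genes (34.1%) had a mean of at least 1 FPKM. The same held for 26.6% of all genes in the tables and for 53.4% of the 21553 protein-coding ones. Fzd5 alone passed 10 FPKM, 13 genes lay between 0.1 and 1 FPKM, 9 were above 0 but below 0.1, and 5 were listed at 0 in every library. By class, 7 of 10 Frizzled genes reached 1 FPKM, against 3 of 19 Wnt genes, 2 of 4 Sfrp genes, 1 of 4 R-spondins and 1 of 4 Dkk genes. In the order of the 14 levels, Fzd5 and the next gene, Fzd1, did not overlap over the 4 libraries. The other 12 neighbouring pairs did, so the order below Fzd5 is not resolved step by step. At the border of 1 FPKM, Wnt8b lay just inside with a mean of 1.12 FPKM and Rspo3 just outside with 0.916.

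**Figure D2:**
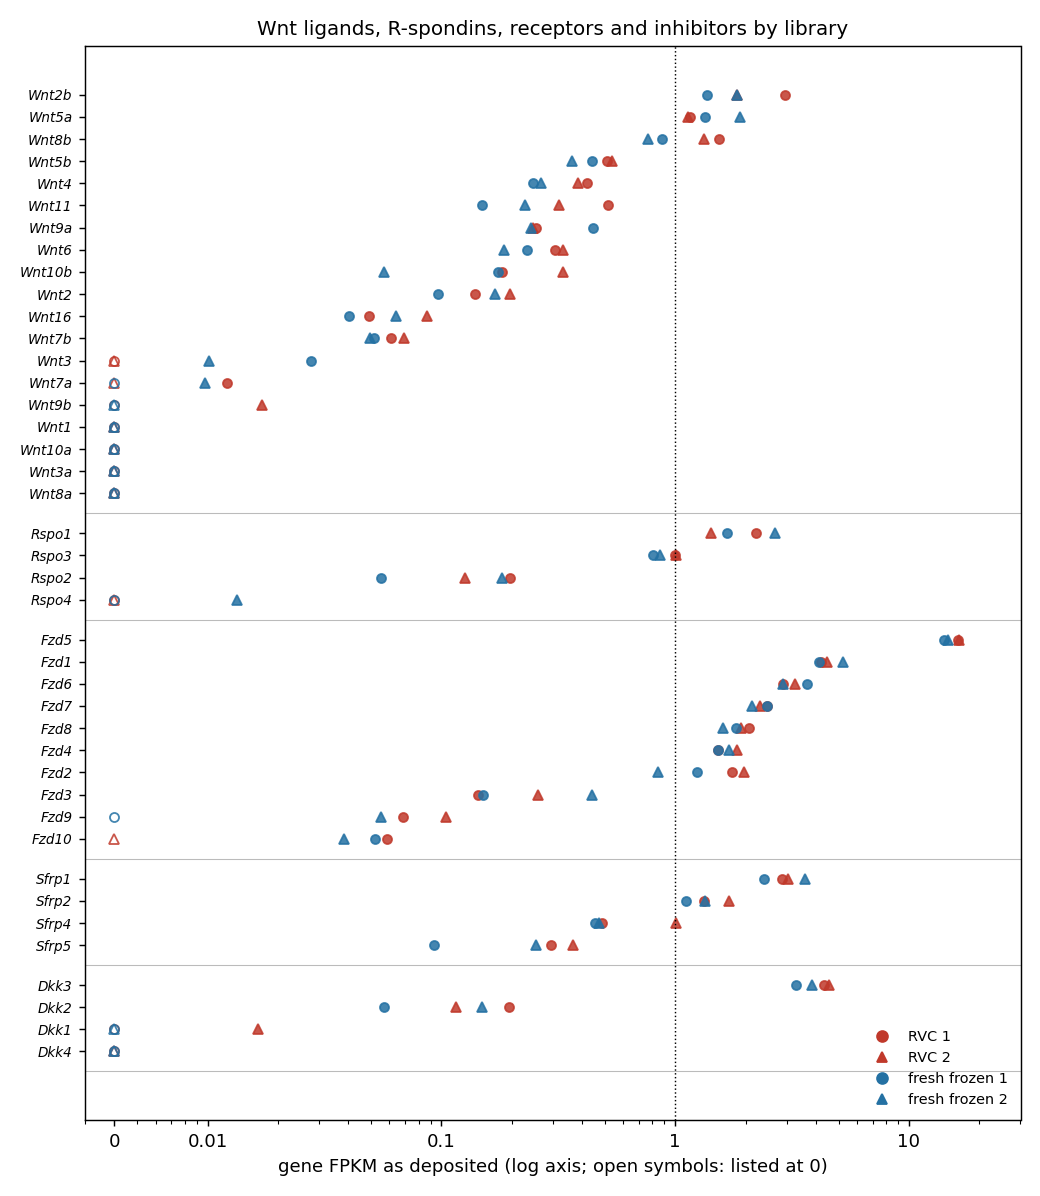
Gene FPKM (horizontal log axis, open symbols at the left edge are values of 0) of all 41 genes, grouped by class and ordered by mean within it; colours mark the RVC and fresh frozen groups and shapes the library number. Fzd5 stands apart at 14.1 to 16.3 FPKM, and 27 genes have means to the left of the dotted line at 1 FPKM.

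Among the ligands, Wnt2b, Wnt5a and Wnt8b reached a mean of 1 FPKM. Wnt2b, a ligand of the β-catenin branch made by mesenchyme, measured 2.95 and 1.83 FPKM in RVC 1 and 2, and 1.36 and 1.84 in fresh frozen 1 and 2 (2.00 ± 0.672, SD, n = 4). Pairs of values are given in this order throughout. RVC 1 was the high library, and the groups overlapped only through RVC 2 and fresh frozen 2, which were nearly equal. The gene lies on chromosome 3 (chr3:104852588-104869237, GRCm39, minus strand), and its main transcript held 96.4% of its level.

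Wnt5a, best known for signalling without β-catenin, measured 1.16 and 1.13 FPKM in RVC tissue, against 1.34 and 1.90 in fresh frozen 1 and 2 (1.38 ± 0.355). Both RVC libraries lay below both fresh frozen ones, and fresh frozen 2 was the highest. No single transcript carried this gene (chr14:28226707-28249405). The leading one, ENSMUST00000112272, held 48.4% of the level, with 0.589 and 0.399 FPKM in RVC tissue, against 0.742 and 0.946 in fresh frozen tissue. The longest, ENSMUST00000063465, starts upstream of it at position 28226707 rather than 28233362 and measured 0.493, 0.382, 0.406 and 0.646 FPKM in the same order. For the leading transcript the groups did not overlap, and for the longest they did. Cufflinks divided reads between these overlapping models by likelihood, so the split is less certain than the gene's sum.

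Wnt8b, a ligand known mainly from the embryonic brain, measured 1.53 and 1.32 FPKM in RVC tissue, against 0.878 and 0.765 in fresh frozen tissue (1.12 ± 0.363). It passed 1 FPKM on average only through the RVC pair, since both fresh frozen values were below it. Its full-length transcript, ENSMUST00000041163, held 82.5% of the level (1.06, 1.14, 0.878 and 0.633 FPKM). The rest came from an 826-nt transcript listed at 0.475 FPKM in RVC 1, 0.181 in RVC 2, near 0 in fresh frozen 1 but 0.132 in fresh frozen 2. That transcript has no defined coding sequence in GENCODE vM39. The full-length one had a mean of 0.928 FPKM, so the gene's mean passed 1 FPKM only with the shorter one added. The gene is on the plus strand (chr19:44481911-44502712). Its nearest neighbour in the GENCODE vM39 annotation, Sec31b, lies 1337 bases away on the opposite strand and had a mean of 0.216 FPKM.

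The other 16 Wnt genes had means below 1 FPKM. Those at 0.1 FPKM or more were Wnt5b (0.463), Wnt4 (0.329), Wnt11 (0.302), Wnt9a (0.298), Wnt6 (0.264), Wnt10b (0.186) and Wnt2 (0.150 FPKM). Wnt16 and Wnt7b had means of 0.0600 and 0.0579 FPKM. Wnt3 is the ligand that Paneth cells of the small intestine supply to stem cells. It had values of 0 in RVC tissue, and 0.0277 and 0.0101 FPKM in fresh frozen 1 and 2. Its coverage in these 2 libraries was 0.103 and 0.0516 reads per base, and the lower confidence bounds were 0. Wnt7a was above 0 in 2 libraries and Wnt9b in 1. Wnt1, Wnt3a, Wnt8a and Wnt10a were listed at 0 throughout. The highest of these ligands in any library, Wnt5b at 0.535 FPKM in RVC 2, lay below the lowest value of Wnt8b.

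Of the Frizzled genes, which encode membrane receptors with a cysteine-rich Wnt-binding domain, Fzd5 was the highest. It measured 16.2 and 16.3 FPKM in RVC tissue, against 14.1 and 14.7 in fresh frozen tissue (15.3 ± 1.11), which was 3.40 times the next gene's mean and 30.9% of the family's sum. Both RVC libraries were above both fresh frozen ones. A receptor of the intestinal epithelium, Fzd5 lies on the minus strand of chromosome 1 (chr1:64769717-64776910), and its main transcript was covered by 48.3 to 69.2 reads per base, the deepest coverage in the family. An opposite-strand model, Gm38058, with a mean of 2.96 FPKM, shares 1257 bases with it, or 18.1% of its exonic length. No strand setting of the counting is given in the sources used here, so reads in that stretch cannot be assigned with certainty.

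Fzd1 (chr5:4803839-4808035) was second among the receptors, with 4.20 and 4.48 FPKM in RVC tissue, against 4.13 and 5.24 in fresh frozen tissue (4.51 ± 0.509). Fzd7 (chr1:59521583-59526114), the receptor tied to Lgr5-positive stem cells, measured 2.48 and 2.30 against 2.46 and 2.14 FPKM (2.34 ± 0.161). Fzd2 (chr11:102495222-102498884), the third gene of this closely related trio, measured 1.74 and 1.96 against 1.24 and 0.842 FPKM (1.45 ± 0.503). Of the trio, Fzd2 had both RVC libraries above both fresh frozen ones, with fresh frozen 2 lowest, while Fzd1 and Fzd7 overlapped.

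Because these receptors resemble each other, the longest identical run was sought between the leading transcripts of every pair of the 41 genes (GENCODE vM39, GRCm39). None of the 820 pairs shared a run as long as a read of 150 nt. The longest in any pair was 52 nt, and within coding sequence it was 47 nt, found between Fzd1 and Fzd2 and again between Fzd1 and Fzd7. Fzd2 and Fzd7 shared 38 nt. These 3 pairs were the ones with at least 30 identical coding bases in a row, and the median over all pairs was 11. The runs of these 3 pairs are shown 5′ to 3′ in the coding sense, with no capitals. Longer stretches with mismatches were not searched. The first begins at base 1204 of the Fzd1 and 1009 of the Fzd2 coding sequence, the second at base 571 of Fzd1 and 385 of Fzd7, and the third at base 1333 of Fzd2 and 1339 of Fzd7.
Fzd1 and Fzd2: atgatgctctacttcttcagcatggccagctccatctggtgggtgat
Fzd1 and Fzd7: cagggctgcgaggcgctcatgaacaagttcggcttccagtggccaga
Fzd2 and Fzd7: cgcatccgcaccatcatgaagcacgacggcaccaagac

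Fzd6, a receptor of planar polarity signalling (chr15:38869429-38901583), measured 2.89 and 3.24 FPKM in RVC tissue, against 3.68 and 2.90 in fresh frozen tissue (3.18 ± 0.371), with overlapping groups. Its sum hid an uneven split between transcripts. The leading transcript ENSMUST00000022906 held 44.6% of the level on average, but 28.1% in fresh frozen 1, where it measured 1.03 FPKM against 1.51, 1.57 and 1.56 in RVC 1, RVC 2 and fresh frozen 2. The longer ENSMUST00000179165 measured 0.474 and 0.696 FPKM in the RVC libraries against 1.44 and 0.998 in fresh frozen tissue, so its groups did not overlap. A short transcript of 647 nt, ENSMUST00000227606, added 1.11 FPKM in fresh frozen 1 but 0.0956 in fresh frozen 2. That was the widest gap between libraries of 1 group among the 5 Fzd6 transcripts.

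**Figure D3:**
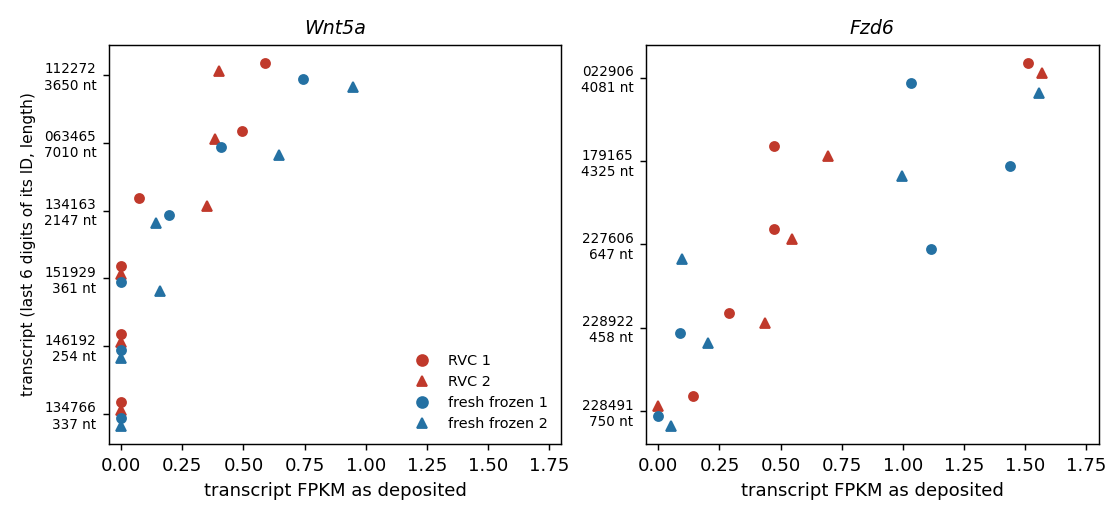
Transcript FPKM (horizontal axis, linear) of each annotated transcript of Wnt5a (left) and Fzd6 (right), 1 point a library; rows give the end of the transcript ID and its length. Neither gene has a transcript that holds its level alone, and fresh frozen 1 has the lowest value of the leading Fzd6 transcript (top row), at 1.03 FPKM, and the highest of the next, at 1.44 FPKM.

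Fzd8, a close relative of Fzd5, measured 2.06 and 1.91 FPKM in RVC tissue, against 1.82 and 1.60 in fresh frozen tissue (1.85 ± 0.195). Fzd4 (chr7:89053563-89062342), a receptor of the vasculature, measured 1.53 and 1.85 against 1.52 and 1.70 FPKM (1.65 ± 0.154). Fzd8 was higher in both RVC libraries, and Fzd4 overlapped. Fzd3, Fzd9 and Fzd10 had means of 0.248, 0.0572 and 0.0373 FPKM, and the last 2 were each listed at 0 in 1 library.

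Rspo1 was the leading R-spondin. It measured 2.21 and 1.43 FPKM in RVC tissue, against 1.67 and 2.68 in fresh frozen tissue (2.00 ± 0.559; chr4:124880223-124902892), so the groups overlapped and the libraries within each group were far apart. In fresh frozen 2, 0.708 FPKM of it came from a 446-nt transcript that was near 0 in the other libraries. Rspo3, the R-spondin of the stromal cells beneath the crypts, was steadier and lower, with 0.996 and 1.00 FPKM in RVC tissue, against 0.801 and 0.865 in fresh frozen tissue. Rspo2 had a mean of 0.140 FPKM, and Rspo4 was listed above 0 only in fresh frozen 2, at 0.0134 FPKM.

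Among the inhibitors that bind Wnts directly, Sfrp1 (chr8:23901518-23939648) measured 2.85 and 3.05 FPKM in RVC tissue, against 2.40 and 3.58 in fresh frozen tissue (2.97 ± 0.489). Sfrp2 (chr3:83673628-83681623) measured 1.33 and 1.71 against 1.11 and 1.34 FPKM (1.37 ± 0.247). Both overlapped between the groups. For Sfrp1 the 2 fresh frozen libraries enclosed the RVC ones. The leading Sfrp2 transcript, ENSMUST00000029625, held 86.5% of the level. It measured 1.33 and 1.36 FPKM in RVC tissue, against 1.11 and 0.949 in fresh frozen tissue, so its groups did not overlap. A 382-nt transcript added 0.393 FPKM in fresh frozen 2 and a 600-nt one 0.347 in RVC 2. Neither has a defined coding sequence in GENCODE vM39, and each was near 0 elsewhere. Sfrp2 shares 484 bases, 21.0% of its exonic length, with the opposite-strand model Gm26771, which had a mean of 0.417 FPKM. Sfrp4 and Sfrp5 had means of 0.606 and 0.252 FPKM. Sfrp4 stood at 1.01 FPKM in RVC 2 and between 0.454 and 0.487 in the other 3 libraries.

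Dkk3 supplied nearly all Dkk RNA. It measured 4.35 and 4.56 FPKM in RVC tissue, against 3.28 and 3.86 in fresh frozen tissue (4.01 ± 0.572; chr7:111715224-111758264), the third-highest mean of the family and 96.8% of the Dkk sum, with both RVC values on top. Dkk3 is the divergent member of its class and is not known as a blocker of Lrp5 and Lrp6. RNA of the Dkk genes whose products act on these co-receptors was low: Dkk2 had a mean of 0.129 FPKM, Dkk1 was above 0 only in RVC 2, at 0.0164 FPKM, and Dkk4 was listed at 0 in all 4 libraries.

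The 300 bases before each gene's annotated start (GENCODE vM39, GRCm39; the start of the leading transcript) were compared with those of 21528 protein-coding genes. Windows of the family were richer in CpG, with a median of 18 CpG dinucleotides against 8 over all protein-coding genes. The median was 20 for the 14 genes at 1 FPKM or more, 17.5 for the 22 below it and above 0, and 6 for the 5 listed at 0, whose windows ranged from 4 to 43. A set of 4 letter strings was searched on both strands. Of the 2 forms of the TCF/LEF site, the one spelled CTTTGAA was in 1 of the 41 windows of the family, against 5.95% of all protein-coding windows. The other form, which differs in its last base and is spelled CTTTGAT, was in 2 windows (3.57% of all). The TATA box, spelled TATAAA, was in 5 windows (14.2% of all). The CCAAT box was in 17 windows (39.9% of all). A match describes letters only and is not evidence of binding.

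The windows of 2 genes are shown 5′ to 3′ on the gene's strand, with the searched strings, or their reverse complements, in capitals. Dkk4 is shown because it held both TCF/LEF strings yet was listed at 0, and Wnt8b because it had one of the largest differences between the groups. The Dkk4 window (chr8:23113759-23114058, plus strand) has the first TCF/LEF form once, the second 3 times, of which 1 on the minus strand, and the TATA box once. The Wnt8b window (chr19:44481607-44481906, plus strand) has the CCAAT box once, on the minus strand.
Dkk4: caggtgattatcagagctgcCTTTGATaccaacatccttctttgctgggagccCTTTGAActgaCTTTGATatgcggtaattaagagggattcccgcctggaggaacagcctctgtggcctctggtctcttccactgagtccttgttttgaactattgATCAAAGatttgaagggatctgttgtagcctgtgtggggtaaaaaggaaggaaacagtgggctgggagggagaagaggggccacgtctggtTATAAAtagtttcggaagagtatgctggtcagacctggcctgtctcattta
Wnt8b: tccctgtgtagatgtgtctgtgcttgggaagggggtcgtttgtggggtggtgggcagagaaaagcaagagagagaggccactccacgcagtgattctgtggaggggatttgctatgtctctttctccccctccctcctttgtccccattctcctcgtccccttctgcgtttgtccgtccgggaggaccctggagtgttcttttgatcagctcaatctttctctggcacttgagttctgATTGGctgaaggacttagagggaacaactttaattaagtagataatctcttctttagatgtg

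The RVC and fresh frozen groups were then compared gene by gene. No Wnt ligand, receptor or inhibitor passed the test: of the 14 genes of the family that could be tested, 0 had an adjusted p under 0.05 in limma (log2 of scaled FPKM + 1, Benjamini-Hochberg over 13775 genes), against 5 genes (0.0363%) overall. At an unadjusted p under 0.05 there were 2 of 14, Fzd2 and Wnt8b, both higher in RVC, against 18.4% of all genes tested. The groups did not overlap for 6 of 14 genes, against 53.2% of all genes: Fzd2, Wnt8b, Dkk3, Fzd5 and Fzd8 were higher in both RVC libraries (26.5% of all genes) and Wnt5a was lower (26.6%). The median log2 fold change was 0.095 over the 14 genes and 0.0062 over all genes, with 10 of the 14 and 7023 of all 13775 genes above 0. The count over all genes was 22, 13, 23 and 25 without RVC 1, RVC 2, fresh frozen 1 and fresh frozen 2, while that of the family stayed at 0. The family's median was 0.15 without fresh frozen 2.

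The 5 genes with the largest differences among those whose groups did not overlap were Fzd2, Wnt8b, Wnt5a, Dkk3 and Fzd5. For Fzd2 the limma log2 fold change, RVC minus fresh frozen, was 0.49 (SE 0.165, adjusted p = 0.203). For Wnt8b it was 0.42 (SE 0.156, adjusted p = 0.233). Both genes stayed short of the threshold over 13775 genes.
Wnt5a went the other way, with a limma log2 fold change of -0.28 (SE 0.170, adjusted p = 0.399). Dkk3 and Fzd5 were higher in RVC by 0.26 (SE 0.139, adjusted p = 0.344) and 0.17 (SE 0.108, adjusted p = 0.415). Fold changes on the log2(FPKM + 1) scale understate those of low genes: the plain ratio of scaled means was 1.79 for Fzd2, 1.75 for Wnt8b, 0.708 for Wnt5a, 1.25 for Dkk3 and 1.13 for Fzd5. Wnt8b reached the filter of 1 FPKM only through its RVC libraries, so its place in the list is in part set by the group in which it was high. The Wnt5a difference was -0.12 without fresh frozen 2 and -0.44 without fresh frozen 1, and that of Dkk3 was 0.16 without fresh frozen 1.

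**Figure D4:**
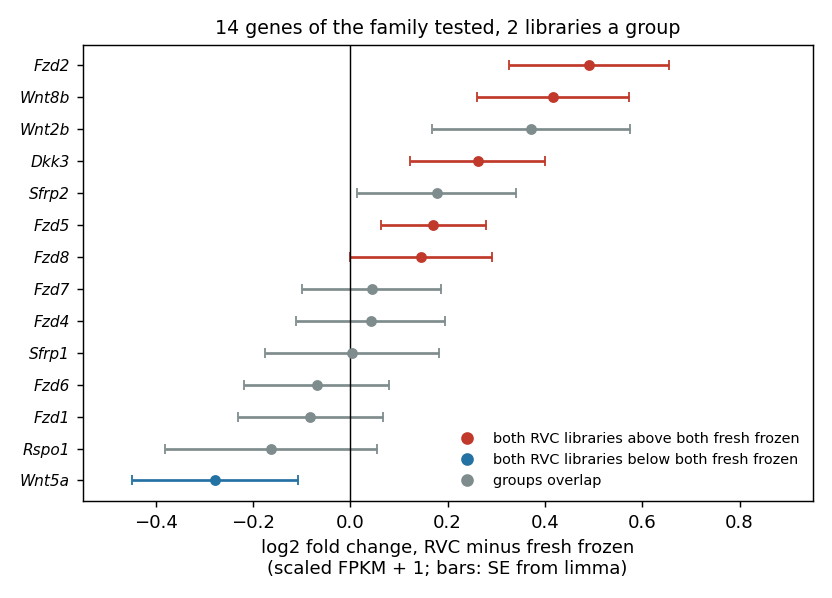
Log2 fold change (horizontal axis, scaled FPKM + 1, RVC minus fresh frozen) of the 14 tested genes, with SE from limma as bars; colour shows whether the 2 libraries of one group lie entirely above those of the other. Values run from -0.28 for Wnt5a to 0.49 for Fzd2, and none has an adjusted p under 0.05.

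Below the filter, 22 genes were above 0 in at least 1 library. In 10 of them both RVC libraries were higher (13.3% of 18017 such genes), in 1, Wnt3, lower (17.5%), and in 11 the groups overlapped. Wnt3 was at most 0.0277 FPKM in any library, with lower confidence bounds of 0. Of the 13 at 0.1 FPKM or more, 8 were higher in both RVC libraries (18.3% of 8878 such genes) and 0 were lower (19.9%): Rspo3, Sfrp4, Wnt5b, Wnt4, Wnt11, Wnt6, Sfrp5 and Wnt10b. Wnt4, for example, measured 0.418 and 0.385 FPKM in RVC tissue, against 0.245 and 0.267 in fresh frozen tissue. Wnt11 measured 0.514 and 0.318 against 0.149 and 0.229 FPKM. None passed when the limma fit was run without the filter on low values: the adjusted p of the 22 genes ran from 0.465 for Wnt4 to 0.987 for Wnt7a.

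Class sums were not tested. The Frizzled sum was 31.4 and 32.4 FPKM in RVC tissue, against 29.2 and 29.6 in fresh frozen tissue. The Wnt sum was 8.08 and 6.81 against 5.49 and 6.15 FPKM, and the Dkk sum 4.55 and 4.70 against 3.34 and 4.01. In these 3 classes both RVC libraries were higher. The R-spondin sums (3.40 and 2.56 against 2.53 and 3.74) and the Sfrp sums (4.96 and 6.13 against 4.06 and 5.65) overlapped. Single genes weighed heavily: Dkk3 made up 96.8% of the mean Dkk sum and Fzd5 50.0% of the Frizzled sum. Of 7 Frizzled genes tested, 3 were higher in both RVC libraries and 4 overlapped, against 26.5% of all genes higher. Of 3 Wnt genes tested, 1 was higher, 1 lower and 1 overlapped.

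Markers of several cell types moved with the same groups. Summed FPKM of 10 smooth muscle genes, led by Actg2, was 1136 to 1692 in RVC and 701 to 751 in fresh frozen tissue. Of these, 10 of 10 were higher in both RVC libraries, against 26.5% of all genes tested. For 10 endothelial genes, led by Lyve1, the sums were 44.3 to 46.9 against 22.8 to 25.9, again 10 of 10. Sums of plasma cell (879 to 980 against 369 to 571, led by Igkc), macrophage (57.7 to 60.0 against 37.1 to 44.9, led by C1qa), glial (76.5 to 78.9 against 57.1 to 63.7, led by Erbb3) and interstitial cell of Cajal genes (129 to 133 against 111 to 121, led by Ano1) were also higher in RVC. Of the genes tested, both RVC libraries were higher for 5 of 5 plasma cell, 5 of 7 macrophage and 2 of 2 glial genes. Of the 3 interstitial cell of Cajal genes 1 was higher and 2 overlapped. Ano1, with a mean of 116 FPKM, made up most of that sum. Kit measured 3.65 and 4.45 FPKM in RVC tissue, against 4.31 and 7.43 in fresh frozen tissue. All genes in each of these lists were above 0 in some library.
The fibroblast sum overlapped, at 226 to 278 in RVC and 223 to 257 in fresh frozen tissue with Dcn leading, as did the epithelial sum, at 6473 to 6678 and 5560 to 7233 with Lgals4 leading. Enteric neuron (led by Vip), mesothelial (Krt7), fat (Fabp4), lymphocyte (Cd3g) and squamous epithelial genes (Krt10) overlapped too. In the squamous list Krt4 and Krt6a were listed at 0 throughout. The part of these markers in the values of the Wnt family was not tested.

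The other genes of the pathway were read from 6 lists of 58 genes in all, of which 43 could be tested in the limma fit. Of these 43, 0 passed at an adjusted p under 0.05, and 7 had an unadjusted p under 0.05, 4 higher and 3 lower in RVC. The groups did not overlap for 22 of 43, 12 higher and 10 lower, and the median log2 fold change was 0.016. Both shares lie near those of all genes given above.

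Around the ligands, Wls, the carrier that brings Wnt proteins to the cell surface, measured 32.4 and 32.0 FPKM in RVC tissue, against 41.1 and 42.6 in fresh frozen tissue. Its log2 fold change in limma was -0.36 (SE 0.103, adjusted p = 0.163). Of the 3 ligands tested, Wnt5a had the same sign and Wnt2b and Wnt8b the opposite one. Porcn, the enzyme that attaches the lipid, had a mean of 1.07 ± 0.126 FPKM, and Notum, which removes it, 0.0261 ± 0.0304. Wls thus stood far above every ligand it carries.

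Beside the Frizzled receptors, the co-receptor Lrp6 had a mean of 35.4 ± 1.58 FPKM and Lrp5 4.90 ± 0.406. The alternative Wnt receptor Ryk had 11.1 ± 1.18 FPKM. All 8 genes of this list reached 1 FPKM, and their sums, 58.2 to 61.7 FPKM in RVC and 60.4 to 61.6 in fresh frozen tissue, overlapped. Lrp6 was above Fzd5 in every library.

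Of the R-spondin receptors, Lgr4 measured 54.0 and 61.1 FPKM in RVC tissue, against 60.9 and 60.7 in fresh frozen tissue (59.2 ± 3.44). Lgr5, which marks crypt stem cells, measured 0.986 and 0.563 against 0.601 and 0.806 FPKM. Rnf43 and Znrf3, the ligases that R-spondins hold back, had means of 8.43 ± 1.08 and 1.64 ± 0.243 FPKM. Lgr4 was the highest of these receptors in all 4 libraries, and its groups overlapped, as did those of Lgr5 and Rnf43. Znrf3 was lower in both RVC libraries, at 1.45 and 1.41 FPKM against 1.82 and 1.87 (limma log2 fold change -0.23, adjusted p = 0.418).

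Of 7 inhibitors without an Sfrp or Dkk symbol, 3 reached a mean of 1 FPKM. Kremen1 and Kremen2, receptors for Dkk proteins, had means of 3.88 ± 0.454 and 2.09 ± 0.303 FPKM. Frzb, a secreted inhibitor of the Sfrp group, had 1.07 ± 0.132. Its symbol does not match the rule, so the Sfrp counts and sums above leave it out. The other 4 inhibitors of this list lay below 1 FPKM, and Sost was listed at 0 throughout.

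Within the cell, Ctnnb1, which encodes β-catenin, had a mean of 147 ± 6.53 FPKM. Csnk1a1, a kinase that marks β-catenin for destruction, had 98.8 ± 5.35. Tcf7l2, the main TCF factor of the intestinal epithelium, had 80.9 ± 13.2. For Tcf7l2 both RVC libraries were higher, at 87.8 and 95.9 FPKM against 67.3 and 72.7, with a limma log2 fold change of 0.39 (SE 0.112, adjusted p = 0.163).

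Among 18 Wnt target genes, Cdx1, a homeobox factor of the epithelium, led with 60.0 ± 1.66 FPKM and ranged from 58.1 to 61.4. Slc12a2, a chloride transporter of crypt cells, measured 19.6 and 19.6 FPKM in RVC tissue, against 33.7 and 43.2 in fresh frozen tissue. Its limma log2 fold change was -0.92 (SE 0.143, adjusted p = 0.112), and without fresh frozen 1 it was -1.11 (adjusted p = 0.0425). That fit has 1 fresh frozen library, which is assumed to vary like the RVC pair. Ccnd2, a cyclin, measured 17.2 and 20.4 against 30.7 and 29.9 FPKM, with a limma log2 fold change of -0.66 (SE 0.119, adjusted p = 0.129). Nkd1, a feedback inhibitor and the target with an unadjusted p under 0.05 in the other direction, measured 2.41 and 2.98 against 1.58 and 1.48 FPKM. Its limma log2 fold change was 0.55 (SE 0.152, adjusted p = 0.158). Axin2, the feedback inhibitor often used as a readout of the pathway, measured 3.37 and 3.10 against 2.60 and 3.85 FPKM, so the groups overlapped. Over the 12 target genes tested, the median log2 fold change was -0.03.

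**Figure D5:**
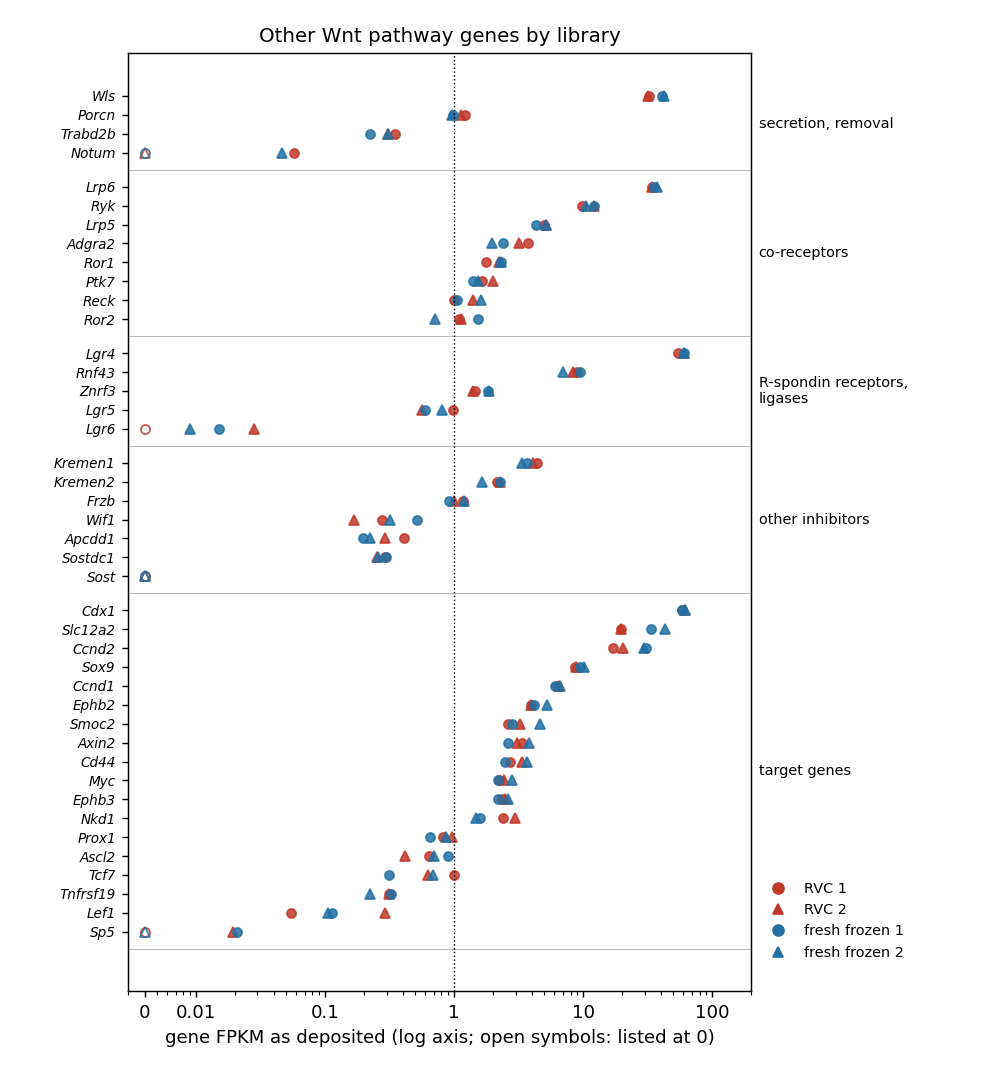
Gene FPKM (horizontal log axis, open symbols at the left edge are values of 0) of the Wnt pathway genes outside the family in 5 lists, with colours for the groups and shapes for the library number; the 16 intracellular genes are not drawn. Lgr4, Cdx1, Wls and Lrp6 stand highest, and Slc12a2, Ccnd2 and Wls show both RVC libraries to the left of both fresh frozen ones.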

How the data were processed

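The 4 libraries were made from total RNA after enzymatic depletion of ribosomal RNA and sequenced as read pairs of 150 nt, per the labels' protocols. The authors aligned the reads to GRCm39 with TopHat2 2.1.1 and estimated transcript levels with Cufflinks 2.2.1, per the submitters' processing notes. The annotation release and any strand setting are not given in the sources used here. The values deposited by the authors are FPKM per transcript, with confidence bounds and coverage, a signal of reads per base, per the file headers. Since FPKM is relative to the mapped fragments, a very abundant RNA takes from the level of the rest. The read split between overlapping transcripts is a model estimate.

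Gene FPKM was summed over transcripts, and levels are given as deposited. For the test, libraries were scaled by median ratio and compared on log2(FPKM + 1), with a pseudocount of 1, in limma 3.58.1 (R 4.3.3; lmFit, eBayes with trend, two-sided, no covariate). Genes needed a mean of 1 FPKM, a transcript of at least 300 nt and status OK throughout; 13775 did. Benjamini-Hochberg adjustment ran over all of them with a threshold of 0.05. The fit was also run on data simulated from its own variance model, so that run cannot test whether the model holds here. Every gene of the family with a mean of 1 FPKM is named with all 4 values. Of the tested genes whose groups did not overlap, the 5 with the largest change are given with statistics. The 3 most abundant genes of each pathway list are named with their levels, and the leading gene of each marker list by name. Lgr5, Notum, Sost, Axin2, Nkd1 and the examples below 1 FPKM were added after their values were seen. The family and all lists were chosen with earlier results of these data known. Foxl1 and Tubb3 from the marker lists were not analysed here. The alternatives tried were upper-quartile scaling or none, a pseudocount of 0.1, other filters, no trend, a replicate block and each library left out; a crossed block was added after the data were seen. Sequences and windows came from GENCODE vM39 on GRCm39, where all 90 transcripts of the family were found, 43 with the same ends as in the deposited tables.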

Additional observations from a re-analysis of the deposited data

How the results depend on the processing

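No gene of the family passed the limma threshold under any alternative; the lowest adjusted p among them ran from 0.189 (crossed block) to 0.546 (without RVC 1). The directions of Fzd2, Wnt8b, Wnt5a, Dkk3, Fzd5, Wls, Slc12a2 and Ccnd2 held under every alternative in which they could be tested, and log2 fold changes with a library left out ran from 0.36 to 0.63 for Fzd2, from -0.44 to -0.12 for Wnt5a, and from 0.16 to 0.37 for Dkk3. The count of all genes passing, 5, was 0 with no filter on low values, 2 with a mean of at least 5 FPKM, 0 with transcripts under 300 nt left out and 0 with no trend. It was 13 to 25 with each library left out (22, 13, 23 and 25 without RVC 1, RVC 2, fresh frozen 1 and fresh frozen 2). With a replicate block on the sample number it was 123, and 1 pathway gene, Slc12a2, passed (log2 fold change -0.92, adjusted p = 0.0189 in limma). The sample numbers were not taken to pair the libraries. Deviations of same-numbered libraries from their group means correlated at -0.134 over 13775 genes. With 2 libraries a group, crossing the numbers gives 0.134 by construction, so this value cannot show whether the libraries are paired. A crossed block, added after seeing the data, gave 12 genes. Pathway genes passing numbered 0 to 1 with a library left out, the 1 being Slc12a2 without fresh frozen 1, where the lone fresh frozen library is assumed to vary like the RVC pair. The median log2 fold change of the family was 0.17 with a mean of at least 5 FPKM, where Fzd5 alone was tested, and 0.079 to 0.154 with a library left out. Genes of the family at 1 FPKM or more numbered 13 to 14 with a library left out. They numbered 12 when 1 FPKM was required in every library. With each gene's most abundant transcript alone they also numbered 12, and Wnt5a and Wnt8b fell below 1 FPKM. For the other changes the cause was not tested. Below about 1 FPKM, coverage of a few reads per base or less limits what these libraries resolve.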
